A study of Mus musculus with 24 samples.

Results

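The core adipogenic transcription factors are proteins that together drive a precursor cell to become a fat cell, and 10 of them were examined, namely Pparg, Cebpa, Cebpb, Cebpd, Rxra, Ebf1, Klf5, Klf15, Nr1h3 and Zfp423. Their genes were taken by gene symbol from the 37310 genes of each deposited table, and all 10 were found and passed the filter on low values. RNA had been sequenced from primary cultures of the stromal vascular fraction of C57BL/6 mice aged 6 weeks, which holds the fat cell precursors. The cells came from inguinal white adipose tissue (WAT) or interscapular brown adipose tissue (BAT), and were taken through differentiation with EGCG, which is epigallocatechin gallate, the main polyphenol of tea leaves, or with DMSO as the control. Day 4 closed the induction phase, in which the medium held insulin, dexamethasone (a glucocorticoid) and IBMX (an inhibitor of phosphodiesterases that raises cyclic AMP). Day 8 closed a second phase in medium with insulin and T3, so day and medium cannot be told apart. Each combination of depot, day and treatment had 3 libraries, which makes 24 in 8 groups. The labels give neither the EGCG dose nor whether replicates came from separate isolations, so p-values measure only the spread between these libraries, which may be technical.

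In textbook accounts of adipogenesis, C/EBPβ and C/EBPδ (Cebpb, Cebpd) appear within hours of hormonal induction, the former in answer to cyclic AMP and the latter to glucocorticoid. They open the way for PPARγ (Pparg) and C/EBPα (Cebpa), which switch each other on and hold the mature state. PPARγ binds DNA as a heterodimer with the retinoid X receptor RXRα (Rxra) and is the receptor for thiazolidinedione drugs. ZFP423 (Zfp423), a zinc finger protein of committed precursors, and EBF1 (Ebf1) act before and beside Pparg. KLF5 (Klf5) is an early activator of Pparg, KLF15 (Klf15) a later one that also controls glucose and amino acid metabolism, and Nr1h3 encodes LXRα, a sterol-sensing nuclear receptor that is itself switched on by PPARγ.

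The values are FPKM, reads scaled to gene length and to the depth of the library, so they can be compared between genes. Replicates 1 and 2 of all groups stand in 1 table (16 libraries with 39452696 to 52893848 assigned reads) and carry the tests, which were made with limma on log2(FPKM + 1) across 14095 genes. Differences below are on that scale, and a fold given for a difference is a ratio of FPKM + 1, smaller than the ratio of plain FPKM. A gene was called when its adjusted p was under 0.05. Replicate 3 stands in a second table (16392420 to 41675648 reads) and gives values and directions, with no test. In both tables each library was scaled to its own assigned reads. The library of replicate 3 of WAT day 8 EGCG stands apart: its 5 most read genes held 61.0% of its reads, against 3.64% to 10.5% in the others, and its deposited levels of 9 of the 10 factors were 0.291 to 0.447 times the mean of replicates 1 and 2. The fewest reads behind any of the values was 61. Between EGCG and control the median difference of all genes was 0.09 (WAT day 4), 0.17 (WAT day 8), 0.03 (BAT day 4) and 0.17 (BAT day 8), and a median-ratio scaling of the libraries took it to about 0, so calls of the 10 factors that this scaling ends, adds or turns are named beside the result.

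Depot and cell type were checked on markers. Zic1, a brown depot gene, had a mean of 10.6 FPKM in BAT day 4 control cells and 0.0454 in WAT, whereas Hoxc10, a gene of the inguinal depot, had 0.0291 in BAT and 7.70 in WAT. Ucp1, the uncoupling protein of brown fat, had a mean of 0.333 FPKM in BAT controls on day 4 and 6.56 on day 8, and was at 0 in both libraries of BAT day 8 EGCG. Between day 4 controls, 2 of 6 brown depot genes were called higher in BAT (41.4% of all genes were) and 4 were not called. All 5 inguinal genes were called lower (14.4%). Between day 8 controls 6 were higher (31.6%) and 5 lower (22.0%). With EGCG in BAT on day 8, 2 brown depot genes were called higher, Zic1 among them (0.89), and 4 lower (26.1%). Of the inguinal genes 3 were called higher there (46.5%). The summed FPKM of 6 adipocyte genes (Adipoq, Fabp4, Plin1, Cidec, Lep, Lipe) was 4271 to 4884 in WAT day 8 controls and 122 to 138 with EGCG, and 8528 to 8654 and 279.9 to 285 in BAT. Fabp4 held most of these sums, with a mean of 4022 of 4578 in WAT day 8 controls and 125 of 130 with EGCG. On day 8 all 6 genes were called lower with EGCG in both depots, where 18.9% of all genes were in WAT and 26.1% in BAT. In bulk samples fewer cells of a type and less RNA per cell cannot be told apart.

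In the mouse build NCBIM37 (mm9) with the GENCODE vM1 annotation, Pparg (ENSMUSG00000000440.6) lies on chromosome 6, 115311239 to 115440419, plus strand, and Cebpa (ENSMUSG00000034957.9) on chromosome 7, 35904312 to 35906945, plus strand. Cebpb (ENSMUSG00000056501.3) lies on chromosome 2, 167514415 to 167515918, plus strand. An exon of Tmem189 on the minus strand overlaps it, and whether the counting used strand is not given in the sources used here, so reads of the pair cannot be told apart. Cebpd (ENSMUSG00000071637.4) lies on chromosome 16, 15887379 to 15888559, plus strand, and is filed as a pseudogene in that annotation although it encodes C/EBPδ. Rxra (ENSMUSG00000015846.8) lies on chromosome 2, 27531960 to 27618477, plus strand, Ebf1 (ENSMUSG00000057098.7) on chromosome 11, 44430819 to 44821593, plus strand, and Klf5 (ENSMUSG00000005148.7) on chromosome 14, 99697910 to 99712624, plus strand. Klf15 (ENSMUSG00000030087.5) lies on chromosome 6, 90412570 to 90425232, plus strand, and Zfp423 (ENSMUSG00000045333.9) on chromosome 8, 90185709 to 90483494, minus strand. Nr1h3 (ENSMUSG00000002108.4) lies on chromosome 2, 91024218 to 91042991, minus strand, with exons shared in part with Gm13783 on the same strand. A second identifier named Ebf1, a pseudogene entry, was at 0 in every library and was left out.

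Promoters are shown for Pparg and Cebpa because the levels of these 2 factors moved together most closely. The sequences are the 250 bases upstream of a RefSeq start in the build GRCm38.p6, which is not the build of the expression tables, so their coordinates are not to be mixed with those above. RefSeq lists 3 starts for Pparg. The most downstream is shown, and the deposited values are per gene and do not separate transcripts from the different starts. Capitals mark the letters TTGCNNAA, a C/EBP binding motif, searched on both strands.
Pparg (chr6:115421816-115422065, plus strand): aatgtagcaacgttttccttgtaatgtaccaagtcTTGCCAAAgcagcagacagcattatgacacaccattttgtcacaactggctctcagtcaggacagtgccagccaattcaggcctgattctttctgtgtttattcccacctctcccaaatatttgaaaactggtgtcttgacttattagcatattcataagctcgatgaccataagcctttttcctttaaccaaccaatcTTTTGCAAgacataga
Cebpa (chr7:35119043-35119292, plus strand): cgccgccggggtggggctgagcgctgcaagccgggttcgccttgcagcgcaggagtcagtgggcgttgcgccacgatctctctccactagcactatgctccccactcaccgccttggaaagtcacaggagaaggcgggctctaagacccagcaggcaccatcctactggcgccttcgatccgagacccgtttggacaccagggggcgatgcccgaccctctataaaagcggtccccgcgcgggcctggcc
The Pparg window held the motif at -215 and -16, counted to its first base from the start site, the latter on the minus strand, and its GC content was 40.8%. The Cebpa window, with a GC content of 66.4%, held no match to these letters, nor did the windows at the other Pparg starts. Over 32851 promoter windows of the same length 9.56% held the motif, and it was in 2 of the 14 windows of the 8 factors with an entry (there was none for Cebpd or Klf5), the other being a start of Zfp423. The letters AGGTCA, recognised by nuclear receptors, were in 4 of these 14 windows and in 14.0% of all, the GC box GGGCGG in 7 and in 32.7%, and the letters CCAAT in 3 and in 33.8%. A match is a description of letters and not a bound site, and sites that depart from the letters searched are missed.

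On the FPKM scale a C/EBP gene had the highest level of the 10 factors in every group. Cebpa had the highest level of all in the 4 control groups, from 127 ± 14.6 FPKM (SD, n = 2) in WAT day 8 controls to 229 and 271 in the libraries of BAT day 4 controls. By the mean of replicates 1 and 2, the first place with EGCG was held by Cebpb in 3 groups, with 156 ± 15.9 FPKM in WAT day 4, 59.9 ± 3.44 for the same depot on day 8, and 143 ± 6.15 in BAT day 4. In BAT day 8 EGCG cells it was held by Cebpd, with 71.4 ± 3.76 FPKM. The order of this pair turned between BAT libraries: in replicate 2 of day 4 EGCG Cebpd was at 142 and Cebpb at 139, and in replicate 3 of day 8 EGCG Cebpb was at 98.6 and Cebpd at 61.2. Zfp423 and Klf5 were the lowest pair in every group. In plain FPKM the means of Pparg spanned 16.2-fold over the 8 groups, those of Cebpa 13.4-fold, Klf15 9.29-fold, Zfp423 6.69-fold and Nr1h3 5.51-fold. The spans were narrower for Cebpb (3.84-fold), Klf5 (3.24-fold), Cebpd (2.64-fold), Rxra (2.2-fold) and Ebf1 (1.46-fold).

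**Figure D1:**
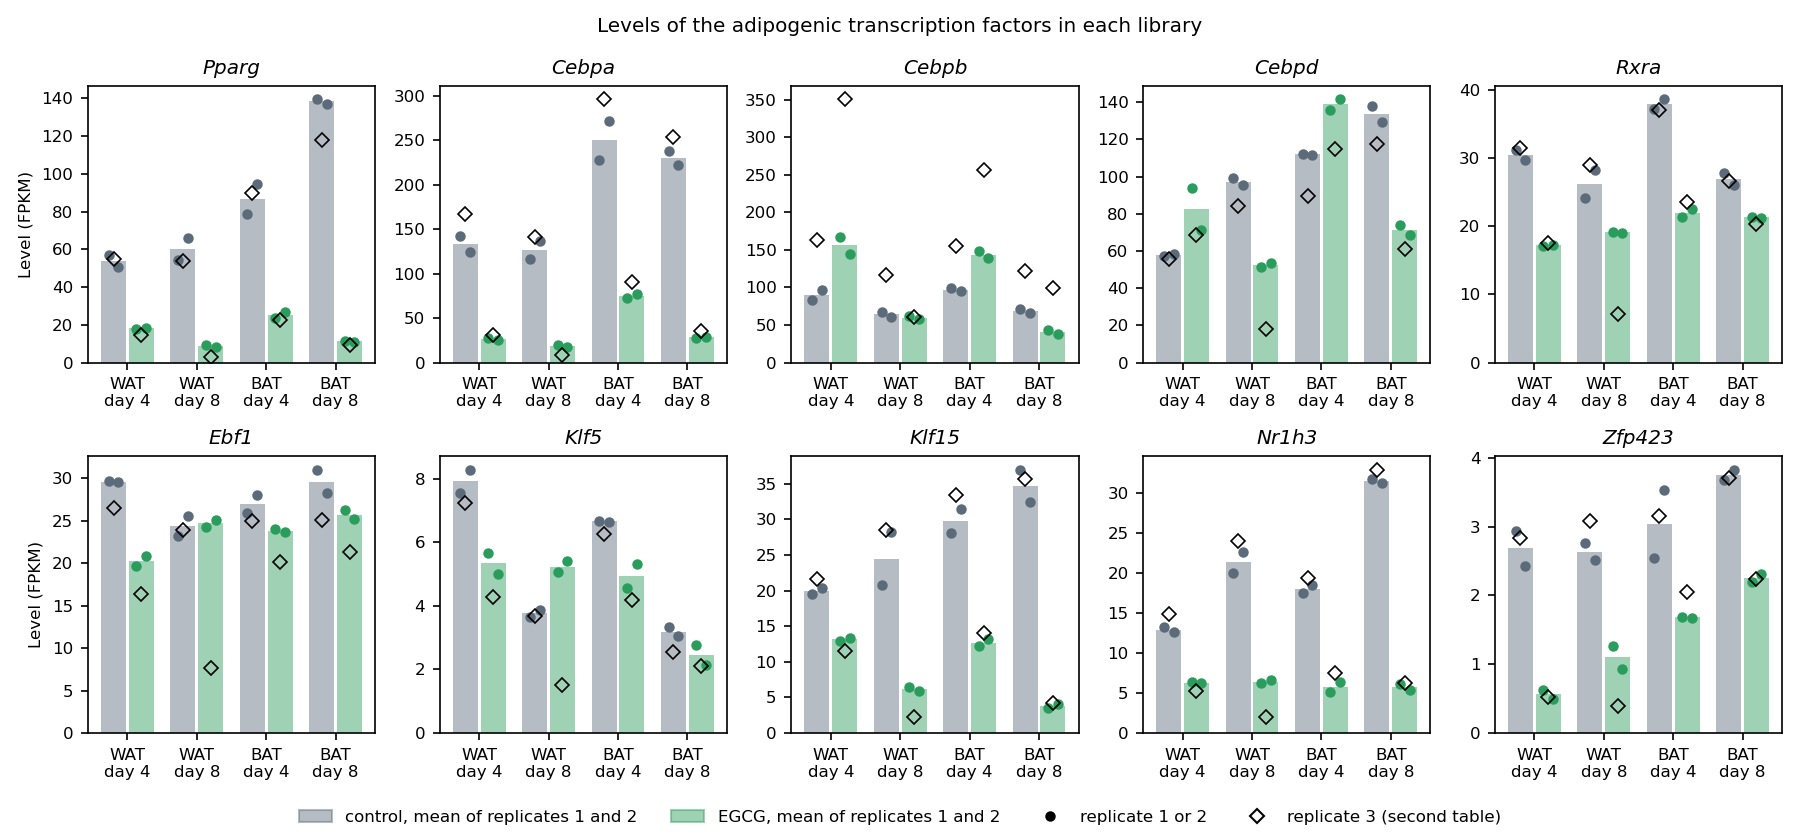
Level in FPKM (y axis, from 0) of each of the 10 factors by depot and day (x axis), with control in grey and EGCG in green. Bars are means of replicates 1 and 2, dots are these 2 libraries and open diamonds are replicate 3 from the second table. The bars of Pparg, Cebpa, Klf15 and Nr1h3 are low in all 4 EGCG groups, while the Cebpb and Cebpd bars are higher with EGCG than in controls on day 4.

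The main comparison asks what EGCG does to the factors within each depot and day. On day 4, in both depots, the inducers Cebpb and Cebpd rose and the other 8 factors fell. On day 8 neither inducer was higher with EGCG, and Pparg, Cebpa, Klf15 and Nr1h3 stood far below their controls. In WAT on day 4, 2 of 10 factors were called higher, where 34.4% of all 14095 genes were, and 8 lower, where 19.3% were. In WAT on day 8 only Klf5 was called higher, against 44.7% of all genes, and 7 factors were called lower, against 18.9%. In BAT on day 4 the counts were 2 higher, against 27.9% of all genes, and 8 lower, against 20.6%. In BAT on day 8 no factor was called higher, against 46.5%, and all 10 were called lower, against 26.1%. With median-ratio scaling the all-gene shares called higher and lower were 25.4% and 27.5% in WAT day 4, 28.3% and 28.4% at day 8 of the same depot, and 35.3% and 34.5% in BAT day 8. Replicate 3 had the direction of the call for every call but that of Klf5 in WAT on day 8, both as deposited and after median-ratio scaling. In WAT on day 8 its EGCG library is the one that stands apart. Most of its deposited levels are low, so a lower deposited value there says little. The median difference of the 10 factors was -0.67, -0.83, -0.67 and -0.82 for WAT day 4, WAT day 8, BAT day 4 and BAT day 8.

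**Figure D2:**
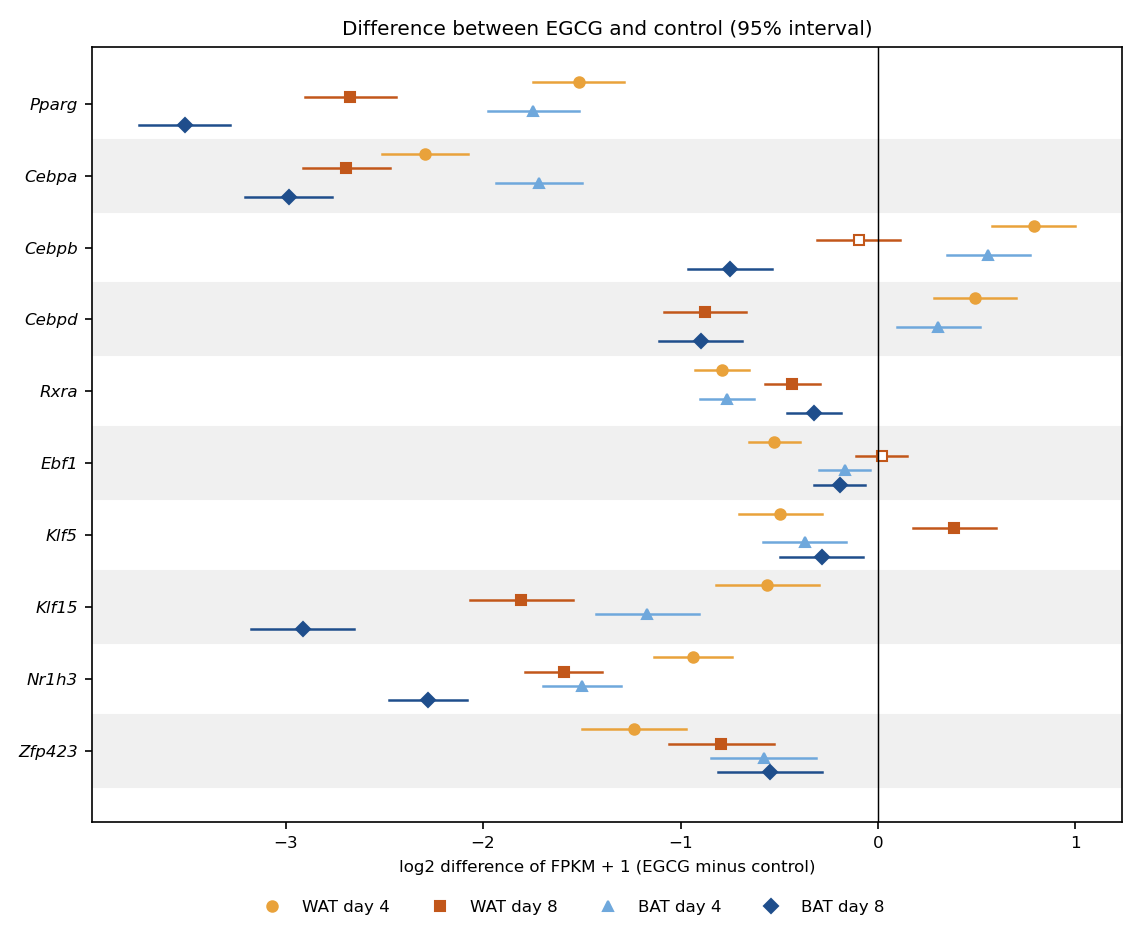
Difference between EGCG and control cells in log2(FPKM + 1) (x axis) for each factor (y axis) in the 4 combinations of depot and day. Lines are 95% intervals from limma, filled symbols are called and open symbols are not. Cebpb and Cebpd lie right of 0 on day 4 only, and Pparg reaches -3.51 in BAT on day 8.

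Pparg, the central regulator, had 57.0 and 50.8 FPKM in the 2 tested libraries of WAT day 4 controls and 17.8 and 18.5 with EGCG, and replicate 3 gave 54.9 and 14.7. On day 8 in WAT it had 54.2 and 66.2 in controls and 9.06 and 8.05 with EGCG, with 54.0 and 2.97 in replicate 3. This EGCG library of replicate 3 is the one that stands apart, and after median-ratio scaling its value was 7.95. No control library overlapped an EGCG library. Pparg fell 2.86-fold on day 4 (log2 difference -1.52 ± 0.11 (SE), adjusted p 3.70e-07) and 6.38-fold on day 8 (-2.67 ± 0.11 (SE), adjusted p 2.37e-09). In BAT the day 4 values were 78.9 and 94.6 in controls and 23.6 and 26.7 with EGCG, and the day 8 values were 139.5 and 137 in controls against 11.3 and 11.1 with EGCG. BAT day 8 controls thus had the highest Pparg level of all groups, and EGCG took it 11.4-fold lower (-3.51 ± 0.11 (SE), adjusted p 9.37e-11), against 3.35-fold on day 4 (-1.74 ± 0.11 (SE), adjusted p 1.31e-07). Replicate 3 had 118 and 9.17 FPKM on day 8.

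Cebpa, the partner that keeps Pparg on and is needed for insulin sensitivity of the mature cell, followed the same course. In WAT it had 142 and 124 FPKM in day 4 controls against 27.1 and 25.6 with EGCG, and 116 and 137 in day 8 controls against 19.8 and 17.6 with EGCG. In BAT it had 229 and 271 against 72.7 and 77.5 on day 4, and 238 and 223 against 27.3 and 29.2 on day 8. Control and EGCG libraries were far apart throughout. Cebpa fell in WAT (-2.29 ± 0.10 (SE), adjusted p 9.41e-09 on day 4, and -2.69 ± 0.10 (SE), adjusted p 1.41e-09 on day 8) and in BAT (-1.72 ± 0.10 (SE), adjusted p 1.04e-07 on day 4, and -2.98 ± 0.10 (SE), adjusted p 2.17e-10 on day 8). On day 4 the fall of Cebpa was larger in WAT than in BAT (EGCG effect in BAT minus that in WAT 0.58 ± 0.14 (SE), adjusted p 0.0109), and on day 8 the depots were not called different (-0.29, adjusted p 0.127).

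The inducers moved the other way on day 4. Cebpb had 82.6 and 97.1 FPKM in WAT controls and 167 and 145 with EGCG, a rise of 1.73-fold (0.79 ± 0.10 (SE), adjusted p 3.44e-05). In BAT it had 99.0 and 94.9 in controls against 148 and 139 with EGCG, a rise of 1.47-fold (0.56 ± 0.10 (SE), adjusted p 4.84e-04). Replicate 3 had higher Cebpb values than both other libraries in 7 of the 8 groups, 1.60 to 2.43 times their mean in these 7, yet the same order, with 163 and 351 in WAT and 155 and 256 in BAT. By day 8 Cebpb was lower with EGCG in BAT, at 43.2 and 37.9 against 71.3 and 66.3 (-0.75 ± 0.10 (SE), adjusted p 1.96e-05). On day 8 in WAT it had 67.8 and 60.6 in controls and 62.3 and 57.5 with EGCG and was not called (-0.10, adjusted p 0.398, 95% interval -0.31 to 0.11). With median-ratio scaling it was called lower there (-0.31, adjusted p 0.0149).

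Cebpd, which answers to glucocorticoid in textbook accounts, had 57.4 and 58.2 FPKM in WAT day 4 controls and 93.9 and 71.0 with EGCG (0.49 ± 0.10 (SE), adjusted p 0.00105). Its answer to glucocorticoid was not tested here. Without replicate 1 of the EGCG cells the WAT difference was 0.29, and in a fit of both tables it was 0.31, both called. In BAT on day 4 it had 112 and 112 in controls against 136 and 142 with EGCG (0.31 ± 0.10 (SE), adjusted p 0.0193). The rise in BAT was small beside that of Cebpb, and its adjusted p was 0.0660 to 0.0958 without replicate 1 or 2 of the controls or replicate 2 of the EGCG cells. On day 8 Cebpd stood lower with EGCG in both depots, at 51.6 and 53.5 against 99.1 and 95.3 in WAT (-0.88 ± 0.10 (SE), adjusted p 7.86e-06) and at 74.0 and 68.7 against 138 and 129.6 in BAT (-0.9 ± 0.10 (SE), adjusted p 3.72e-06). From day 4 to day 8 the EGCG effect on Cebpd therefore turned over, by -1.37 in WAT (adjusted p 1.14e-05) and -1.2 in BAT (1.78e-05). The same turn was measured for Cebpb in BAT (-1.31, adjusted p 1.03e-05).

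Set against each other within a library, the C/EBP factors changed their order of abundance. The Cebpa level was 1.73 and 1.28 times the Cebpb level in WAT day 4 controls and 0.162 and 0.177 times with EGCG, and on day 8 1.72 and 2.26 times against 0.317 and 0.307. In BAT the ratios were 2.31 and 2.86 against 0.492 and 0.557 on day 4, and 3.33 and 3.36 against 0.632 and 0.769 on day 8. Such a ratio does not depend on the scaling of a library. It does carry any reads of the Tmem189 exon that overlaps Cebpb, and the higher Cebpb values of replicate 3. In all 12 control libraries, replicate 3 included, Cebpa exceeded Cebpb (1.02 to 3.36 times), and in all 12 EGCG libraries it was below it (0.0869 to 0.769 times). For Pparg and its partner Rxra the order turned on day 8, when Pparg had 5.01 and 5.27 times the Rxra level in BAT controls and 0.530 and 0.523 times with EGCG, and 2.24 and 2.34 against 0.472 and 0.423 in WAT. On day 4 this ratio with EGCG was 1.04 and 1.07 in WAT and 1.10 and 1.18 in BAT, with 0.839 and 0.947 in replicate 3. These ratios were chosen with earlier results known and carry no test.

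**Figure D3:**
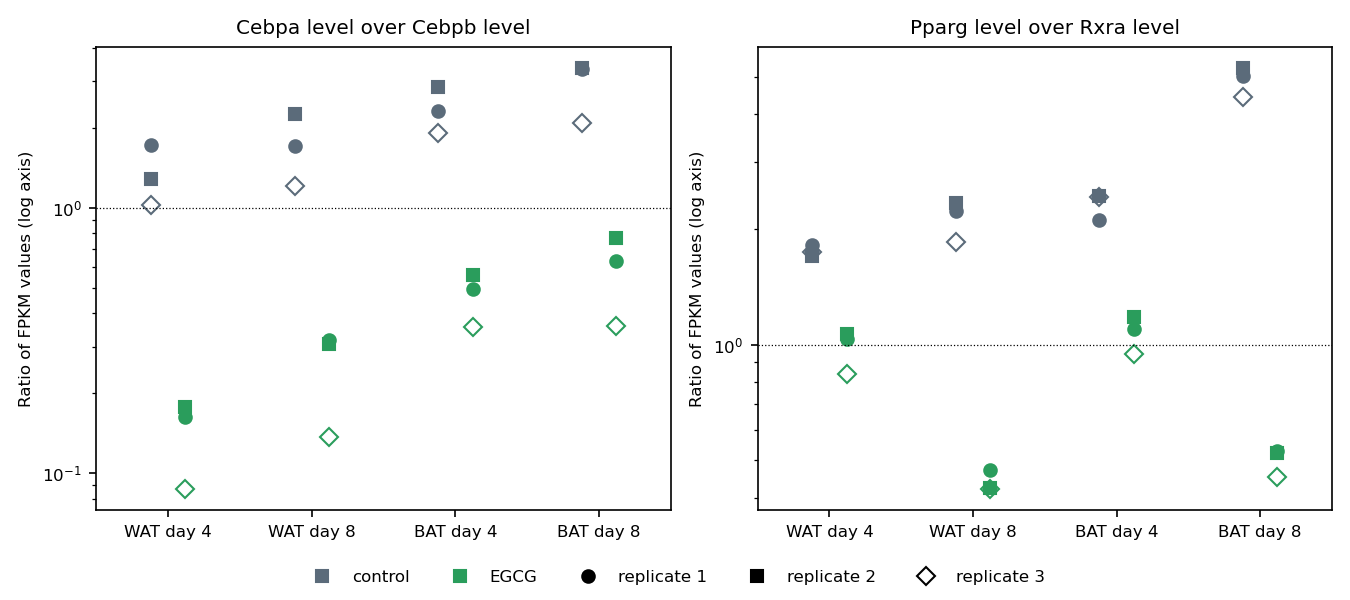
Ratio of FPKM values within each library (y axis, log scale) by depot and day (x axis), for Cebpa over Cebpb (left) and Pparg over Rxra (right), with control in grey and EGCG in green and 1 symbol shape per replicate. The dotted line marks a ratio of 1. On the left all 12 control libraries lie above the line and all 12 EGCG libraries below it.

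Rxra, the common dimer partner of many nuclear receptors, was lower with EGCG by a smaller amount and more on day 4 than on day 8. In WAT it had 31.2 and 29.8 FPKM in day 4 controls and 17.2 and 17.3 with EGCG (-0.79 ± 0.06 (SE), adjusted p 1.11e-06), and 24.2 and 28.3 in controls against 19.2 and 19.1 with EGCG on day 8 (-0.43 ± 0.06 (SE), adjusted p 8.04e-05). In BAT it had 37.3 and 38.7 in controls against 21.4 and 22.5 with EGCG on day 4 (-0.76 ± 0.06 (SE), adjusted p 1.35e-06), and 27.8 and 26.0 in controls against 21.4 and 21.3 with EGCG on day 8 (-0.32 ± 0.06 (SE), adjusted p 5.80e-04). The EGCG effect on Rxra was weaker on day 8 than on day 4, by 0.36 in WAT (adjusted p 0.00615) and 0.44 in BAT (0.00127).

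Zfp423, the mark of committed precursors, had the lowest level of the 10 in 7 of the 8 groups and fell in all 4 comparisons. In WAT on day 4 it had 2.94 and 2.42 FPKM in controls and 0.628 and 0.494 with EGCG (-1.24 ± 0.12 (SE), adjusted p 5.94e-06), and 2.83 and 0.530 in replicate 3. On day 8 in WAT the values were 2.76 and 2.51 in controls against 1.27 and 0.936 with EGCG (-0.79 ± 0.12 (SE), adjusted p 1.22e-04). In BAT the fall was -0.58 on day 4 (adjusted p 0.00193) and -0.55 on day 8 (0.00148), and the control libraries of day 4, at 2.54 and 3.53, differed more from each other than those of any other group. At levels this near the pseudocount of 1 the log2 scale understates the change. The fall on day 4 was larger in WAT than in BAT (BAT minus WAT 0.66 ± 0.17 (SE), adjusted p 0.0149), with an adjusted p of 0.0521 to 0.0580 without replicate 1 of the WAT or of the BAT controls.

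Ebf1, which marks and maintains the adipocyte lineage, had the narrowest span of the 10. Its day 4 values in WAT were 29.7 and 29.5 FPKM in controls and 19.7 and 20.9 with EGCG (-0.52 ± 0.06 (SE), adjusted p 1.99e-05). In BAT the differences were -0.17 on day 4 (adjusted p 0.0345) and -0.19 on day 8 (0.0113). Both were near the threshold, and the adjusted p was 0.0916 to 0.229 on day 4 without replicate 2 of the controls or replicate 1 or 2 of the EGCG cells, and 0.0743 to 0.116 on day 8 without replicate 1 of the controls or replicate 2 of the EGCG cells. In WAT on day 8 Ebf1 had 23.2 and 25.6 in controls and 24.3 and 25.1 with EGCG, overlapping values that gave no call (0.02, adjusted p 0.809). The sign there depended on scaling, and Ebf1 was called lower with median-ratio scaling (-0.19, adjusted p 0.0227) and quantile normalization (-0.17, adjusted p 0.0330).

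Klf5, the early activator of Pparg, had 7.55 and 8.28 FPKM in WAT day 4 controls and 5.65 and 5.01 with EGCG (-0.49 ± 0.10 (SE), adjusted p 0.00103), and 6.67 and 6.64 in controls against 4.55 and 5.31 with EGCG in BAT (-0.37 ± 0.10 (SE), adjusted p 0.00699). In BAT on day 8 it was again lower, at 2.75 and 2.13 against 3.32 and 3.03 (-0.28 ± 0.10 (SE), adjusted p 0.0181). The BAT calls were narrow: the adjusted p was 0.0746 on day 4 without replicate 1 of the EGCG cells and 0.105 to 0.200 on day 8 without replicate 1 of the controls or replicate 2 of the EGCG cells. On day 8 in WAT cells Klf5 was higher with EGCG, at 5.06 and 5.39 against 3.66 and 3.87 (0.39 ± 0.10 (SE), adjusted p 0.00379). Replicate 3 went the other way, at 1.52 against 3.68 FPKM as deposited, a log2 difference of -0.89 that was -0.11 after median-ratio scaling of all 24 libraries, its EGCG library being the one that stands apart. The call was lost with median-ratio scaling of the 16 libraries (0.22, adjusted p 0.0724) and in a fit of both tables (0.10, adjusted p 0.277).

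Klf15, the later activator, had 19.5 and 20.3 FPKM in WAT day 4 controls and 13.0 and 13.4 with EGCG (-0.56 ± 0.12 (SE), adjusted p 0.00199), and 20.7 and 28.2 in controls against 6.46 and 5.95 with EGCG on day 8 (-1.81 ± 0.12 (SE), adjusted p 1.35e-07). In BAT it had 28.0 and 31.5 in controls against 12.2 and 13.2 with EGCG on day 4 (-1.17 ± 0.12 (SE), adjusted p 8.32e-06), and 37.0 and 32.5 in controls against 3.47 and 4.01 with EGCG on day 8 (-2.91 ± 0.12 (SE), adjusted p 1.07e-09). On the scale of FPKM + 1, Klf15 was thus 7.53-fold lower with EGCG in BAT on day 8, next to Pparg and Cebpa in the order of the falls. In plain FPKM its means there were 34.7 and 3.74, 9.29-fold apart, and those of Cebpa, 230 and 28.2, were less far apart. The fall of Klf15 was larger in BAT than in WAT on both days (BAT minus WAT -0.61, adjusted p 0.0202 on day 4, and -1.11, adjusted p 3.71e-04 on day 8). The day 4 value had an adjusted p of 0.0540 to 0.0737 without replicate 1 of the WAT controls, replicate 2 of WAT EGCG, replicate 2 of the BAT controls or replicate 1 of BAT EGCG.

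Nr1h3, the gene of the sterol sensor, had 13.3 and 12.6 FPKM in WAT day 4 controls and 6.33 and 6.22 with EGCG (-0.94 ± 0.09 (SE), adjusted p 5.09e-06), and 20.1 and 22.7 in controls against 6.21 and 6.62 with EGCG on day 8 (-1.59 ± 0.09 (SE), adjusted p 3.90e-08). In BAT it had 17.5 and 18.5 in controls against 5.11 and 6.42 with EGCG on day 4 (-1.50 ± 0.09 (SE), adjusted p 1.25e-07), and 31.8 and 31.3 in controls against 6.11 and 5.33 with EGCG on day 8 (-2.28 ± 0.09 (SE), adjusted p 7.80e-10). All 4 EGCG groups thus sat near the same LXRα transcript level, from 5.72 ± 0.549 to 6.42 ± 0.293 FPKM, and neighbours in that order overlapped, while the 4 control groups were all apart from each other, from 12.9 ± 0.475 in WAT day 4 to 31.5 ± 0.326 in BAT day 8. The fall was larger in BAT than in WAT on both days (BAT minus WAT -0.56, adjusted p 0.00710 on day 4, and -0.69, adjusted p 0.00134 on day 8), on day 4 not in a fit of both tables (-0.28, adjusted p 0.135).

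Counted over the 10, the EGCG effect differed between depots for 5 factors on day 4, against 28.1% of all genes, and for 5 on day 8, against 39.2%. On day 4 the fall was larger in WAT for Cebpa, Ebf1 and Zfp423 and larger in BAT for Klf15 and Nr1h3. Without replicate 1 of the WAT day 4 controls the day 4 count was 3. On day 8 all 5 differences were negative, and they were those of Pparg (-0.84, adjusted p 0.00103), Cebpb (-0.65, adjusted p 0.00281), Klf5 (-0.67, adjusted p 0.00223), Klf15 and Nr1h3. The EGCG effect differed between days for 9 factors in WAT, against 49.4% of all genes, and for 7 in BAT, against 55.4%. It grew from day 4 to day 8 for Pparg (-1.16, adjusted p 7.78e-05 in WAT, and -1.77, adjusted p 2.24e-06 in BAT), Klf15 (-1.25, adjusted p 1.14e-04, and -1.75, adjusted p 6.13e-06) and Nr1h3 (-0.66, adjusted p 0.00129, and -0.78, adjusted p 2.93e-04). For Cebpa it grew in BAT (-1.27, adjusted p 1.78e-05), and the value in WAT (-0.40, adjusted p 0.0359) had an adjusted p of 0.0528 to 0.135 without replicate 2 of any of the 4 WAT groups or replicate 1 of WAT day 4 EGCG.

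Other cell types were looked for with marker lists, since the stromal fraction is a mixture. The counts are to be read beside the all-gene shares called higher and lower with EGCG. These shares were 34.4% and 19.3% in WAT day 4 and 44.7% and 18.9% in WAT day 8. In BAT they were 27.9% and 20.6% on day 4 and 46.5% and 26.1% on day 8. The summed FPKM of 8 macrophage genes (Adgre1, Cd68, Csf1r, Cd14, Lyz2, Ptprc, C1qa, Mrc1) was 75.8 to 80.9 in WAT day 4 controls and 196 to 201 with EGCG, with 6 of 7 tested genes called higher. In BAT on day 4 it was 174 to 184 and 379 to 421, with 5 of 7 called higher. On day 8 it was lower with EGCG, 57.3 to 60.7 against 118 to 143 in WAT and 59.8 to 60.9 against 119.6 in both BAT controls, with 7 of 7 and 6 of 7 called lower. The macrophage sum therefore moved in the same directions as Cebpd, and as Cebpb other than in WAT on day 8, 2 factors that macrophages also express, and its part in their values was not tested. The sum of 7 endothelial genes was 17.0 to 18.0 against 37.8 to 39.1 in WAT and 11.2 to 13.6 against 36.5 to 39.1 in BAT on day 4, controls first, and 23 to 24.7 against 30.5 in both EGCG libraries and 17.0 to 17.3 against 33.5 to 34.5 on day 8, with 4 or 5 of the 6 tested called higher in each comparison. The day 8 calls of Cldn5, a tight junction gene of the list, were the other way (WAT -0.63, BAT -0.71). The sum of 8 progenitor genes was 417 to 449 and 626 to 637 in WAT on day 4, 1366 to 1452 and 967 to 981 on day 8, 451 to 537 and 636 to 682 in BAT on day 4, and 614 to 618 and 621 to 626 on day 8. Of 7 tested progenitor genes, 2 were called higher and 3 lower in WAT on day 4, 1 and 5 in WAT on day 8, 2 and 1 in BAT on day 4, and 1 and 4 in BAT on day 8. Their part in the values of the factors was not tested. No gene of these 3 lists or of the adipocyte list was at 0 in both libraries of a group. Of 6 mesothelial genes 3 were tested, of which 2 or 3 were called higher with EGCG in each comparison. Their sum was 7.51 to 9.11 in WAT day 4 controls and 17.5 to 29.2 with EGCG, and Upk3b, which defines that cell type, had at most 1 read in a library. Single genes held much of some sums. By the means, Lyz2 was 55.4 of the macrophage sum of 78.4 in WAT day 4 controls and 162 of 199 with EGCG. Ly6a was 944 of the progenitor sum of 1409 in WAT day 8 controls. Krt19 was 8.08 of the mesothelial sum of 8.31 in WAT day 4 controls.

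The day comparison asks how the factors moved between the end of induction and day 8. In controls of both depots Cebpb and Klf5 fell while Cebpd and Nr1h3 rose. In WAT controls 2 factors were called higher on day 8, against 27.7% of all genes, and 4 lower, against 33.2%. In BAT controls 3 were called higher, against 28.7%, and 3 lower, against 40.4%. Klf5 fell most, with 7.55 and 8.28 FPKM on day 4 and 3.66 and 3.87 on day 8 in WAT (-0.9 ± 0.10 (SE), adjusted p 7.00e-06), and 6.67 and 6.64 against 3.32 and 3.03 in BAT (-0.87 ± 0.10 (SE), adjusted p 6.15e-06). Cebpb fell in both depots (-0.48, adjusted p 0.00107 in WAT, and -0.49, adjusted p 7.11e-04 in BAT). Nr1h3 rose in both (0.68, adjusted p 4.03e-05 in WAT, and 0.78, adjusted p 1.01e-05 in BAT). Cebpd rose by 0.74 in WAT (adjusted p 3.44e-05) and by 0.25 in BAT (0.0326), the latter not called with quantile normalization (0.13, adjusted p 0.228) or without replicate 1 or 2 of the day 4 controls or replicate 1 of the day 8 controls (adjusted p 0.0900 to 0.154).

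Pparg separated the depots over this interval. In BAT controls it rose from 86.8 ± 11.1 FPKM to 138 ± 1.71 (0.67 ± 0.11 (SE), adjusted p 1.23e-04), while in WAT controls it had 53.9 ± 4.40 and 60.2 ± 8.49, with overlapping libraries and no call (0.15, adjusted p 0.231). The difference between these 2 day effects was itself called (0.52 ± 0.15 (SE), adjusted p 0.0161), with an adjusted p of 0.0555 to 0.0693 without replicate 1 of either WAT day or of BAT day 4. Without replicate 1 of the WAT day 8 controls, the lower of the pair, Pparg was called higher in WAT too (adjusted p 0.0381). Cebpa was not called between the days in either depot (95% intervals -0.30 to 0.14 in WAT and -0.33 to 0.11 in BAT). The day effect differed between the depots for 4 of the 10 factors, against 40.0% of all genes: Pparg, Cebpd (-0.49, adjusted p 0.0137), Rxra (-0.27, adjusted p 0.0316) and Ebf1 (0.40, adjusted p 0.00310). The Rxra value was not called with median-ratio scaling (-0.15, adjusted p 0.204) or without replicate 2 of any of the 4 groups (adjusted p 0.0837 to 0.107).

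Rxra fell in BAT controls (-0.48, adjusted p 2.73e-05) and in WAT controls (-0.21, adjusted p 0.0114), and the WAT call was lost with median-ratio scaling (-0.15, adjusted p 0.0664) and without replicate 1 of either day (adjusted p 0.0757 to 0.112), and the value was -0.11 and -0.32 without replicate 1 and replicate 2 of day 8. Ebf1 fell in WAT controls (-0.27, adjusted p 0.00199). In BAT controls Ebf1, Klf15 and Zfp423 were not called on the deposited scale, but were called higher on day 8 with median-ratio scaling (Ebf1 0.31, adjusted p 7.94e-04, Klf15 0.40, adjusted p 0.0123 and Zfp423 0.39, adjusted p 0.0116), which moved the all-gene median of this comparison from -0.10 to 0.05 and the all-gene shares called higher and lower to 37.5% and 29.3%. Klf15 in WAT controls had 19.5 and 20.3 on day 4 and 20.7 and 28.2 on day 8 and was not called (0.27, adjusted p 0.0696), and it was called with median-ratio scaling (0.34, adjusted p 0.0304) and without replicate 1 of the day 8 controls (adjusted p 0.00154).

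With EGCG the course over time was different. In WAT EGCG cells 2 factors were called higher on day 8, against 31.8% of all genes, and 5 lower, against 27.7%. In BAT EGCG cells none was called higher, against 29.7%, and 6 were called lower, against 28.2%. Cebpb fell most, from 156 ± 15.9 to 59.9 ± 3.44 FPKM in WAT (-1.36 ± 0.10 (SE), adjusted p 2.97e-07) and from 143 ± 6.15 to 40.6 ± 3.73 in BAT (-1.80 ± 0.10 (SE), adjusted p 3.13e-08). Pparg also fell in both depots (-1.01, adjusted p 7.19e-06 in WAT, and -1.09, adjusted p 3.69e-06 in BAT), as did Cebpa (-0.47, adjusted p 0.00155, and -1.38, adjusted p 3.49e-07), Klf15 (-0.98, adjusted p 2.56e-05, and -1.53, adjusted p 6.43e-07) and Cebpd (-0.63, adjusted p 1.39e-04, and -0.95, adjusted p 5.06e-06). The activators of the mature state were thus lower at day 8 than at day 4 in EGCG cells, whereas none of these 3, Pparg, Cebpa and Klf15, was called lower over the same days in controls. Nr1h3, which rose in controls, was not called with EGCG (95% intervals -0.17 to 0.22 in WAT and -0.20 to 0.19 in BAT). Zfp423 and Ebf1 rose in WAT EGCG cells (0.43, adjusted p 0.00966, and 0.27, adjusted p 0.00198), Zfp423 with an adjusted p of 0.0656 to 0.0920 without replicate 2 of day 4 or replicate 1 of day 8, and in replicate 3 both were lower on day 8 as deposited and higher after scaling. Klf5 fell in BAT EGCG cells (-0.79, adjusted p 2.42e-05) and was not called in WAT (-0.02, adjusted p 0.857).

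**Figure D4:**
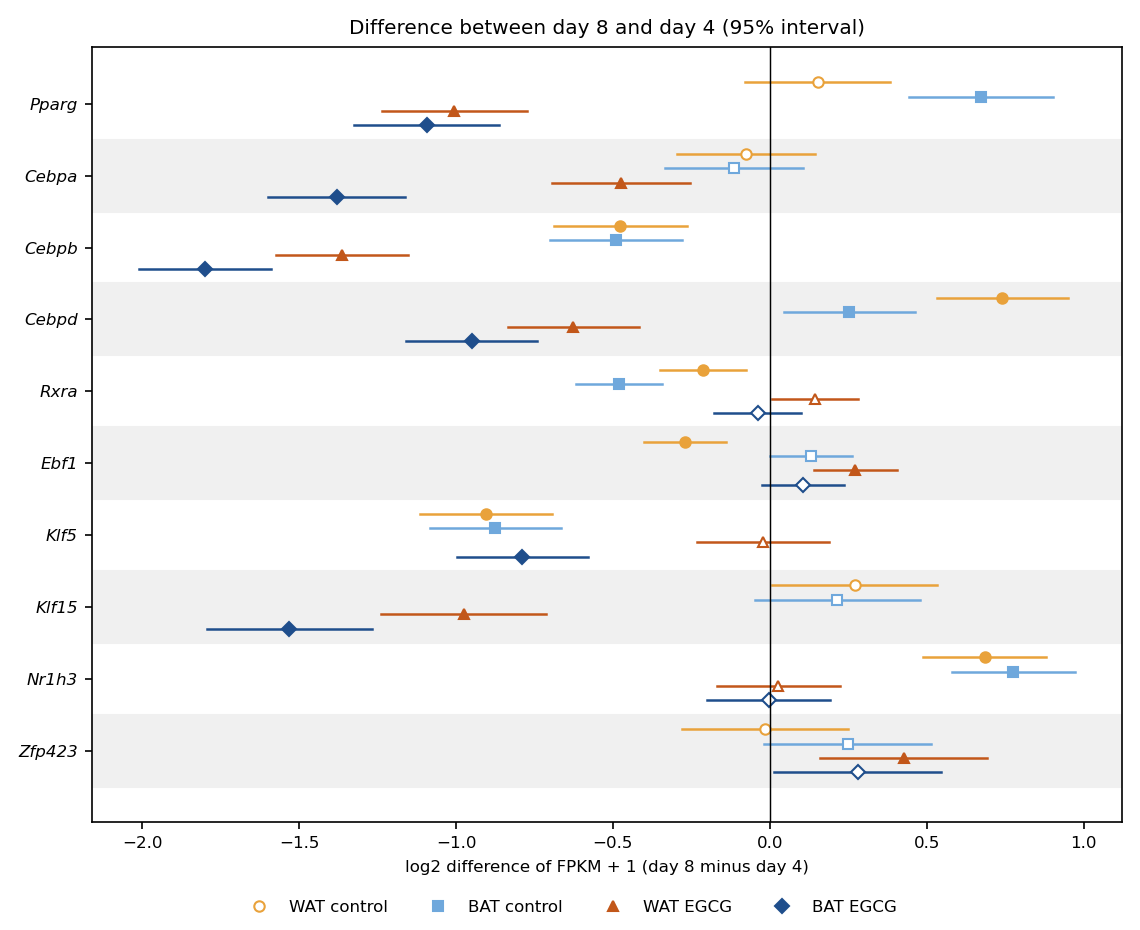
Difference between day 8 and day 4 in log2(FPKM + 1) (x axis) for each factor (y axis) in control and EGCG cells of each depot. Lines are 95% intervals from limma, and filled symbols are called. For Pparg the control symbols lie at 0.15 and 0.67 and the EGCG symbols at -1.01 and -1.09 in WAT and BAT.

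The depot comparison asks where BAT and WAT cultures differed. In controls of both days Pparg, Cebpa, Cebpd, Klf15 and Nr1h3 were higher in BAT. On day 4, 6 of the 10 were called higher in BAT controls, against 41.4% of all genes, and 0 lower, against 14.4%. On day 8, 7 were called higher, against 31.6%, and 0 lower, against 22.0%. With EGCG on day 4 the counts were 6 higher, against 32.9%, and 0 lower, against 15.8%. With EGCG on day 8 they were 4 higher, against 24.4%, and 3 lower, against 14.0%. Median-ratio scaling brought the all-gene shares on day 4 to 24.4% higher and 23.5% lower in controls and to 25% and 20.7% with EGCG. On day 8 it brought them to 28.3% and 25.7% in controls and to 19.3% and 16.8% with EGCG. Quantile normalization brought them on day 4 to 25.9% higher and 21.6% lower in controls and to 23.5% and 22.6% with EGCG. On day 8 it gave 26.5% and 27.7% in controls and 18.9% and 16.8% with EGCG. The control libraries here are those of the EGCG comparisons, so the values are not independent of those above.

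Cebpa stood 1.86-fold higher in BAT than in WAT controls on day 4 (0.9 ± 0.10 (SE), adjusted p 2.27e-05) and 1.82-fold higher on day 8 (0.86 ± 0.10 (SE), adjusted p 2.2e-05). Pparg was 1.60-fold higher on day 4 (0.67, adjusted p 2.46e-04) and 2.29-fold on day 8 (1.19, adjusted p 2.37e-06). Cebpd differed most on day 4 (0.94, adjusted p 1.09e-05, and 0.46, adjusted p 0.00165 on day 8). Klf15 and Nr1h3 were higher in BAT controls by 0.56 and 0.45 on day 4 (adjusted p 0.00214 and 0.00131) and by 0.50 and 0.54 on day 8 (0.00397 and 3.36e-04). The Klf15 difference on day 8 was 0.29 without replicate 1 of WAT, still called (adjusted p 0.0338). Cebpb, in contrast, was not called between control depots on either day (95% intervals -0.10 to 0.32 and -0.11 to 0.31). Rxra was higher in BAT on day 4 (0.31, adjusted p 0.00155), a call lost with median-ratio scaling (0.14, adjusted p 0.0890). Zfp423 was higher in BAT day 8 controls (0.39, adjusted p 0.0178), with an adjusted p of 0.0521 to 0.0848 without replicate 2 of WAT or either BAT library. Ebf1 was higher there too (0.27, adjusted p 0.00254), but not with quantile normalization (0.16, adjusted p 0.05), and on day 4 it and Klf5 were called lower in BAT controls with median-ratio scaling (Ebf1 -0.30, adjusted p 0.00212 and Klf5 -0.37, adjusted p 0.00747).

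With EGCG the depots kept part of this order. Cebpa remained higher in BAT on day 4 (75.1 ± 3.41 against 26.3 ± 1.02 FPKM, 1.48 ± 0.10 (SE), adjusted p 5.24e-07) and on day 8 (0.57, adjusted p 9.62e-04). Pparg, at 11.2 ± 0.147 and 8.56 ± 0.712 FPKM on day 8, differed by 0.36 (adjusted p 0.0191), and the adjusted p was 0.0680 to 0.138 without replicate 2 of WAT or either BAT library. Zfp423 was higher in BAT on both days with EGCG (0.78, adjusted p 2.67e-04, and 0.63, adjusted p 0.00166), and Cebpd likewise (0.76, adjusted p 5.51e-05, and 0.43, adjusted p 0.00388). The 3 factors that were lower in BAT on day 8 with EGCG were Cebpb (-0.55, adjusted p 8.99e-04), Klf5 (-0.86, adjusted p 3.85e-05) and Klf15 (-0.61, adjusted p 0.00205). Klf15 had been higher in BAT than in WAT controls on the same day, so the order of the depots turned over. In replicate 3 these 3 had the same sign after median-ratio scaling and the opposite sign as deposited, the WAT library being the one that stands apart. The remaining calls with EGCG on day 4 were Pparg (0.44, adjusted p 0.00447), Rxra (0.33, adjusted p 0.00107) and Ebf1 (0.22, adjusted p 0.00921), the last lost with median-ratio scaling (0.14, adjusted p 0.0792) and without replicate 1 of WAT (adjusted p 0.0695).

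Genes that the factors are known to control were counted over lists, to be read beside the all-gene shares and medians given above. The lists overlap and are not independent. Adipoq, Fabp4, Plin1, Cidec and Lipe stand among the PPARγ targets and among the adipocyte genes summed above. Srebf1 and Zbtb16 are examples of other genes in more than a single list. Of 16 PPARγ targets (among them Fabp4, Adipoq, Plin1, Cd36 and Lpl), 14 were called lower with EGCG in WAT on day 4, 15 in BAT on day 4, and 16 in each depot on day 8. The median difference of this list was -2.54 (WAT day 4), -4.58 (WAT day 8), -2.18 (BAT day 4) and -4.20 (BAT day 8). Cfd, the serine protease adipsin, was lowest on day 8 (-8.22 in WAT and -6.81 in BAT). On day 4 the lowest were Adipoq (adiponectin) in WAT at -4.30 and Retn (resistin) in BAT at -2.90. Pck1, the gluconeogenic and glyceroneogenic enzyme, was not called in WAT on day 4 (adjusted p 0.686). In WAT on day 8 it was listed at 0 in both EGCG libraries, with 0.228 ± 0.168 FPKM (SD, n = 2) in controls, and its call there (adjusted p 0.0457) was lost in 6 of 12 alternatives, among them without replicate 1 of the controls or either EGCG library (0.119 to 0.321). Angptl4, a secreted inhibitor of lipoprotein lipase that glucocorticoids and fasting also raise, was called higher on day 4 in both depots (0.38, adjusted p 0.00681, and 0.30, adjusted p 0.0271) and lower on day 8 (-1.36 and -2.95). The day 4 rise was not called in BAT without any 1 of its 4 libraries (adjusted p 0.0780 to 0.101), nor in WAT without replicate 1 of the EGCG cells (0.0789). Of 6 tested LXR targets, 2 and 4 were called lower on day 4 in WAT and BAT and 6 and 6 on day 8, with medians of -0.14 and -0.77 on day 4 and -0.67 and -1.47 on day 8. On day 4 in WAT, 5 of the 6 were called, against 3, where replicate 3 was added with the replicate number as a block. Srebf1, which encodes the lipogenic factor SREBP-1, was lowest of these in 3 comparisons (to -1.78 in BAT on day 4), and Abcg1, a sterol exporter, in BAT on day 8 (-2.25). On day 4 Mylip was called higher in WAT (0.29) and Smpdl3a in BAT (0.23), and the Mylip call was lost with median-ratio scaling (0.19, adjusted p 0.0689). Both calls were lost with quantile normalization (adjusted p 0.0570 and 0.0937), without replicate 1 of the controls (0.0833 and 0.198) or replicate 2 of the EGCG cells (0.0645 and 0.129).

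Of 9 glucocorticoid response genes, which share an inducer with Cebpd, 3 were called higher and 3 lower in WAT on each day, 5 higher and 2 lower in BAT on day 4, and 2 higher and 7 lower in BAT on day 8. The median over the list was -0.14 (WAT day 4), 0.01 (WAT day 8), 0.35 (BAT day 4) and -1.16 (BAT day 8). On day 4 the highest were Mt2, a metallothionein, in WAT (1.43) and the kinase gene Sgk1 in BAT (1.91), while Sgk1 was the lowest in WAT (-0.83) and Zbtb16 in BAT (-0.50), a call that was lost without any 1 of its 4 libraries (adjusted p 0.0978 to 0.154). On day 8 Sgk1 was highest in both (0.94 and 0.85), Tsc22d3 (GILZ) lowest in WAT (-1.15) and Zbtb16 in BAT (-2.90). The Tsc22d3 value rested on single libraries, at -1.82 without replicate 1 and -0.48 without replicate 2 of the controls.

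Of 10 tested paralogs of the factors, 4 were called higher and 5 lower in WAT on day 4, 3 and 4 in WAT on day 8, 2 and 5 in BAT on day 4, and 3 and 7 in BAT on day 8. Ppard, the widely expressed PPARδ, rose in WAT on day 4 (15.2 ± 0.547 FPKM in controls and 28.3 ± 1.91 with EGCG, 0.85, adjusted p 9.67e-07). Ebf4 was the highest of the paralogs in the other 3 comparisons (0.61, 0.59 and 0.57 in WAT day 8, BAT day 4 and BAT day 8). Ppara, the PPAR of fatty acid oxidation, was the lowest in BAT on both days (-1.11 and -1.50), Rxrg in WAT on day 8 (-1.08) and Zfp521, a relative of Zfp423 that opposes it, in WAT on day 4 (-1.04).

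Of 16 other factors that promote adipogenesis, 3 were called higher and 6 lower in WAT on day 4, 5 and 7 in WAT on day 8, 4 and 7 in BAT on day 4, and 6 and 9 in BAT on day 8. Mlxipl, the glucose-responsive factor ChREBP, was the lowest in all 4 (from -1.97 in BAT day 4 to -4.56 in WAT day 8). Klf4, an activator of Cebpb, was the highest in 3 (0.51 and 0.82 in WAT on days 4 and 8 and 1.95 in BAT on day 4), and Egr2, which acts with it, was the highest in BAT on day 8 (1.75). With median-ratio scaling the counts in WAT were 1 and 8 on day 4 and 2 and 10 on day 8.

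Of 16 genes that restrain adipogenesis, 6 were called higher and 3 lower in WAT on day 4, 9 and 5 in WAT on day 8, 9 and 3 in BAT on day 4, and 9 and 5 in BAT on day 8, and with median-ratio scaling the counts were 4 and 5 in WAT on day 4 and 6 and 5 on day 8. Without replicate 1 of WAT day 4 EGCG 5 of them were called in WAT on day 4, against 9. Id3, an inhibitor of helix-loop-helix factors, was the highest on day 4 (0.77 and 1.17), and Ddit3 (CHOP, a partner that blocks C/EBP binding) in WAT on day 8 (1.2) and Foxc2 in BAT on day 8 (1.51). Dlk1, the preadipocyte factor Pref-1, was the lowest in 3 comparisons (-2.93 and -1.95 in WAT and -1.80 in BAT on day 4) and Foxo1 in BAT on day 8 (-1.46). Of 17 nuclear receptor cofactors, 4 and 6, 8 and 4, 3 and 8, and 7 and 7 were called higher and lower in WAT day 4, WAT day 8, BAT day 4 and BAT day 8, and with median-ratio scaling WAT day 8 had 2 and 6. Ppargc1b, a coactivator of PPARγ, was the lowest in all 4 (from -1.06 in WAT day 8 to -2.48 in BAT day 8). Ep300, a histone acetyltransferase, was the highest in WAT on day 4 (0.43).

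Likeness of pattern was described by Pearson's r of log2(FPKM + 1) over the 16 tested libraries, in which the EGCG effect is shared by many genes. Among the 10 factors Pparg was most like Cebpa (r = 0.968), then Klf15 (0.944) and Nr1h3 (0.922), and it was little like Cebpb (0.128) or Klf5 (0.134). Cebpb was most like Klf5 (0.601) and least like Ebf1 (-0.43). Outside the list, among 10192 genes, Pparg was most like Bckdhb, a subunit of branched-chain ketoacid dehydrogenase (0.992), Sik2 (0.992) and Adipor2 (0.990). Cebpa was most like Fgfrl1 (0.993), Dgat1, the last enzyme of triglyceride synthesis (0.992), and Slc25a10 (0.989). Klf15 was most like Slc1a5 (0.989), Aplp2 (0.986) and Arl4a (0.981), and Nr1h3 was most like Pex11a (0.982), Slc2a4, the insulin-responsive glucose transporter GLUT4 (0.981), and Acbd4 (0.980). The inducers had other neighbours, with Oaz2 (0.964), Piga (0.948) and 1110049F12Rik (0.944) for Cebpb and Lancl1 (0.927), Arrb1 (0.907) and Glrx (0.9) for Cebpd. Rxra was most like Apex2 (0.972), Gm6863 (0.961) and Hipk2 (0.961), and Klf5 was most like Ppib (0.928), SNORA18 (0.920) and Ddost (0.920). Ebf1 was most like Slc24a3 (0.899), Dlc1 (0.891) and Klhdc10 (0.886), and Zfp423 was most like Plekhh3 (0.958), Slc24a3 (0.942) and Cav1 (0.942).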

How the data were processed

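RNA-seq libraries of 24 samples were deposited by the authors as FPKM values in 2 tables, replicates 1 and 2 in the first and replicate 3 in the second. The submitters' processing notes name FastQC 0.11.9, HISAT2 2.2.0, HTSeq 0.11 and mm9. FPKM times gene length gave whole reads (tolerance 0.01) for at least 99.83% of values, from which depth was taken.

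Groups were taken from the labels. Gene symbols came from GENCODE vM1, and 137 of 137 list entries matched, 4 through a synonym. Genes with FPKM of at least 1 in at least 2 of 16 libraries were tested (14095). Models of log2(FPKM + 1) with a mean for each group were fitted in limma 3.58.1 (R 4.3.3, eBayes with trend, 8 residual degrees of freedom), tests were two-sided, and p-values were adjusted by Benjamini-Hochberg over all tested genes within each of 17 contrasts. Tables were handled in Python 3.11.15 with pandas 2.3.3. The procedure was checked on simulated data. The 10 factors and the gene lists were chosen with earlier results of these data known. The values of 1 listed gene are not reported here. All 10 factors were named, with the 3 genes most like each. From the lists of related genes mainly the highest and the lowest called gene of an EGCG comparison were named, and not every paralog. A pairing check of replicate numbers 1 and 2 gave correlations of deviations of -0.079 to 0.081 over 28 group pairs. Alternatives were a pseudocount of 0.1, no filter, median-ratio scaling, quantile normalization, a replicate block, both tables together, no trend, and leaving out each library. In every group the libraries of replicates 1 and 2 differed by more than read sampling gives, so none was counted as a library deposited again. This does not tell separate cultures from repeat libraries.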

Additional observations from a re-analysis of the deposited data

Results flagged for a closer look

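The EGCG effect differed between depots or between days, by the test of the difference itself, for the factors listed here. Values are differences of log2 effects. On day 4 the effect in BAT minus that in WAT was 0.58 for Cebpa, 0.36 for Ebf1, -0.61 for Klf15, -0.56 for Nr1h3 and 0.66 for Zfp423. On day 8 it was -0.84 for Pparg, -0.65 for Cebpb, -0.67 for Klf5, -1.11 for Klf15 and -0.69 for Nr1h3.

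In WAT the effect on day 8 minus that on day 4 was negative for Pparg (-1.16), Cebpa (-0.40), Cebpb (-0.89), Cebpd (-1.37), Klf15 (-1.25) and Nr1h3 (-0.66), and positive for Rxra (0.36), Ebf1 (0.54) and Klf5 (0.88). In BAT it was negative for Pparg (-1.77), Cebpa (-1.27), Cebpb (-1.31), Cebpd (-1.20), Klf15 (-1.75) and Nr1h3 (-0.78), and positive for Rxra (0.44). The day effect in BAT controls minus that in WAT controls was 0.52 for Pparg, -0.49 for Cebpd, -0.27 for Rxra and 0.40 for Ebf1.

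In data that carry no test, the 5 most read genes took 61.0% of the reads of WAT day 8 EGCG replicate 3.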

How the results depend on the processing

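Of 120 differences between 2 groups for the 10 factors, 89 were called, and 75 of these kept their direction and their call under all 8 settings and all libraries left out. No called difference changed sign. The pairing check covered replicates 1 and 2 alone, which share only a number (median correlation 0.000588, none over 0.1). Replicate 3 was below both others in 8 groups for Cebpd, 7 for Ebf1, 7 for Klf5 and 6 for Pparg. It was above both in 7 for Cebpa, 7 for Cebpb, 6 for Nr1h3 and 5 for Klf15. For Rxra it was above in 4 and below in 3, and for Zfp423 above in 2 and below in 1. The block of replicates 1 and 2 changed none of the 120 calls (with the block EGCG in BAT on day 8 still gave 10 called factors). Of the listed genes named in the text, it ended the call of Zbtb16 in BAT on day 4 (-0.50). Of 30 called differences of effects 24, and of 56 differences of listed genes 50, kept their call throughout, alternatives that were added after seeing the data. Uncalled differences that changed sign, with their values under the alternatives, were Ebf1 with EGCG in WAT on day 8 (0.02 against -0.19, -0.17, -0.29, -0.25 under median-ratio scaling, quantile normalization, both tables, and both tables without the library that stands apart, -0.049 to 0.086 leaving out a library), Zfp423 over days in WAT controls (0.035, 0.073, 0.072 under median-ratio scaling and both fits of both tables, -0.12 to 0.086 leaving out), Cebpa over days in BAT controls (0.072, 0.015, 0.011 in the same settings, -0.24 to 0.010) and WAT controls (-0.19 to 0.040), Klf5 over days in WAT EGCG cells (-0.096 to 0.051), and Nr1h3 over days in EGCG cells of WAT (-0.020 with both tables, -0.013 to 0.067) and BAT (0.038 with quantile normalization, -0.14 to 0.14). Between depots they were Cebpb in day 4 controls (-0.055, -0.11, -0.11, -0.0028 to 0.23) and day 8 controls (-0.048), Zfp423 in day 4 controls (-0.00062, -0.037, -0.054 to 0.30), Rxra in day 8 controls (-0.012, -0.054, -0.078, -0.080, -0.070 to 0.15), Klf15 (-0.11 to 0.0042) and Nr1h3 (-0.25 to 0.028) with EGCG on day 4, and Ebf1 with EGCG on day 8 (-0.023). For the EGCG effect between depots on day 4, 3 to 5 factors were called leaving out a library. The pseudocount and the prior without trend left the sign of all 120 differences as it was. The cause of these changes was not tested.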
